A study of Homo sapiens with 12 samples.

Results

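The 10 genes described here encode the enzymes that remove superoxide and hydrogen peroxide and a protein that recharges peroxiredoxins. They are the 6 peroxiredoxins PRDX1 to PRDX6, the superoxide dismutases SOD1 and SOD2, catalase (CAT) and thioredoxin (TXN). They were chosen by symbol from per-sample tables that list 98711 genes, of which 27249 carry an Ensembl identifier. The symbols matched 11 entries, because SOD2 is listed under 2 Ensembl identifiers. All 10 genes were measured in all 12 samples and passed the filter on low values in both cell lines.

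RNA was sequenced from Huh7 and HepG2, established human cell lines labelled as hepatocellular carcinoma (HCC) cells with a wild-type genotype. Sorafenib, a kinase inhibitor used against HCC, was given to the resistant cells at a first dose written as 10 μmol, and survivors were regrown under rising doses for 8 months. Parental cells carry the label sorafenib sensitive and no treatment. Each of the 4 groups (parental Huh7, resistant Huh7, parental HepG2 and resistant HepG2) held 3 samples. The labels give the same course of selection for all resistant samples of a line. They do not say that the 3 samples of a group were separate selections or cultures, so p-values measure the spread between these samples only. Reads behind the samples, calculated from the values and exon lengths, numbered 12290122 to 19285958. Parental HepG2 sample 2 had the fewest reads and the highest value among the parental HepG2 samples for PRDX1, PRDX2, PRDX5, PRDX6 and SOD1, so values without it are given below for HepG2. The 10 hepatocyte and liver cancer markers summed to 3914 to 9725 FPKM in every sample, whereas fibroblast, endothelial and leukocyte markers each summed to at most 4.60 FPKM. FPKM is the number of sequenced fragments per kilobase of gene, scaled to the reads of the sample, so that gene length is taken into account. Some genes that nearly every cell expresses were listed low, as given below with SOD1. Listed levels of different genes therefore compare with caution.

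Superoxide leaks from the respiratory chain and from oxidases, and superoxide dismutases turn it into hydrogen peroxide. Catalase breaks hydrogen peroxide down inside peroxisomes, while peroxiredoxins reduce it in the cytosol, mitochondria and endoplasmic reticulum. Most peroxiredoxins are recharged by thioredoxin, which thioredoxin reductase restores with NADPH, and hepatocytes are known for high levels of these enzymes.

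In Huh7, 9 of the 10 genes passed the test (adjusted p under 0.05, limma on log2(FPKM + 1)). PRDX1, PRDX2, PRDX4, PRDX5, PRDX6 and SOD1 rose in resistant cells, PRDX3, SOD2 and CAT fell, and TXN was not called. These were 6 higher and 3 lower members, where 32.7% of all 12554 genes tested were called higher and 37.4% lower. In HepG2, PRDX1, PRDX4 and CAT rose, SOD2 fell and the other 6 genes were not called. These were 3 higher members and 1 lower member, where 11.6% of all 11762 genes tested were called higher and 8.43% lower. PRDX1 and PRDX4 were thus called higher in both lines and SOD2 lower in both lines, whereas CAT was called in opposite directions. In RNA from whole cultures, a change in the share of cells and a change in RNA per cell cannot be told apart. In Huh7 the groups did not overlap for any of the 10 genes, 7 higher and 3 lower, beside 35.2% and 39.2% of all genes tested. In HepG2 they did not overlap for 3 higher members and 1 lower member, beside 24.9% and 15.5%.

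**Figure D1:**
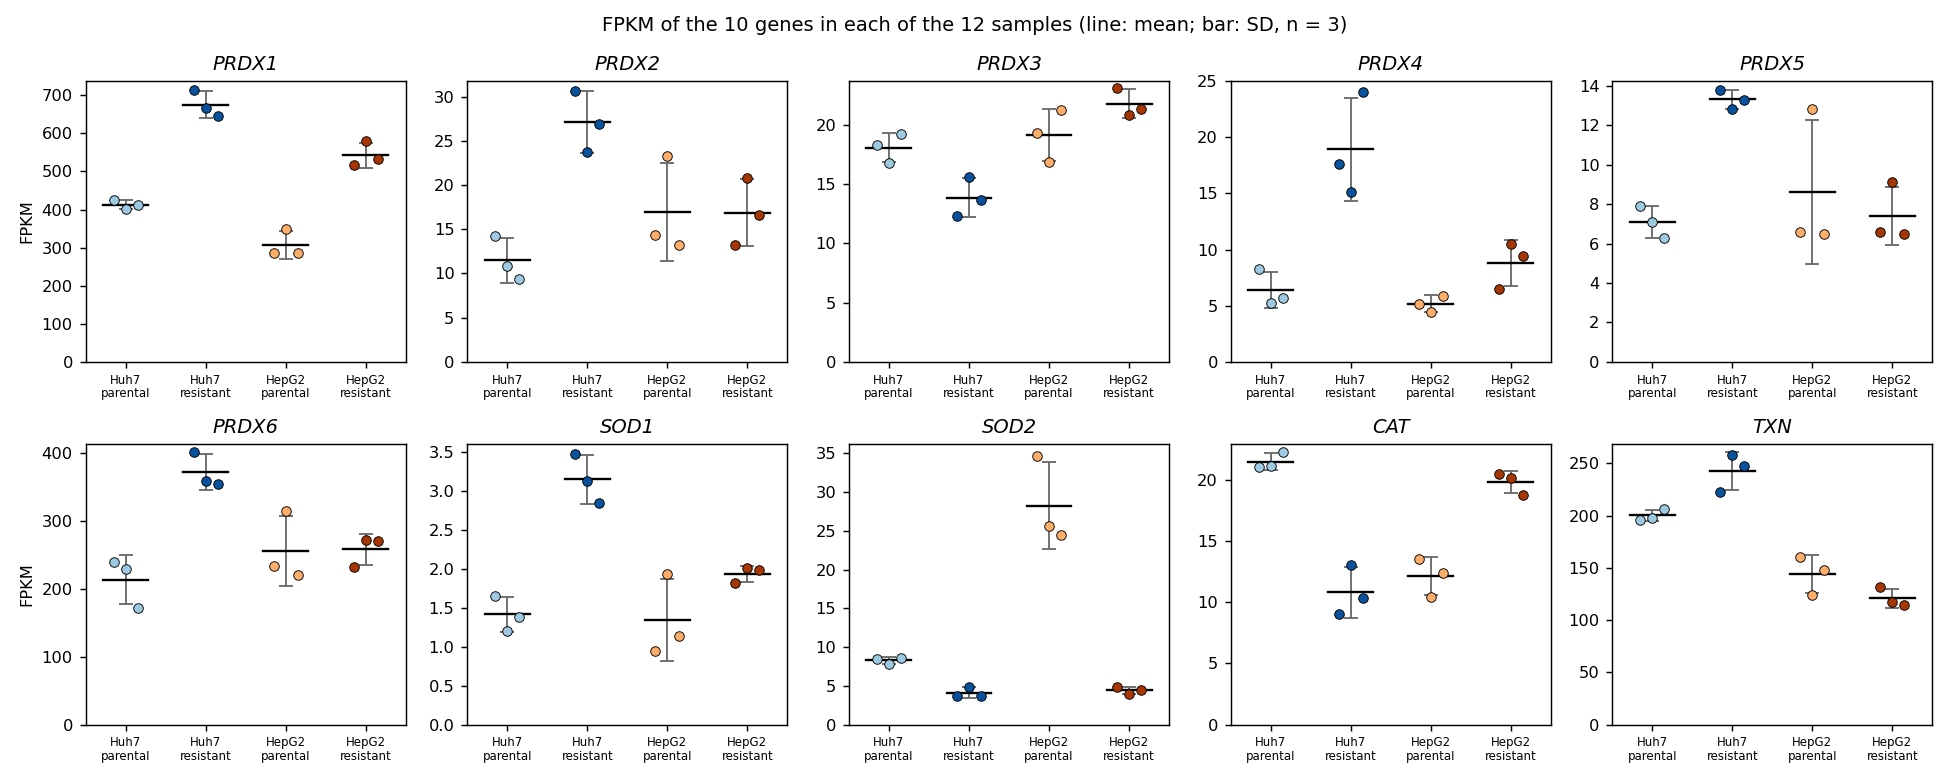
FPKM (vertical axes, from 0) of each of the 10 genes in the 12 samples, grouped as parental and resistant Huh7 and parental and resistant HepG2. Points are samples, horizontal lines are means and bars are SD (n = 3). PRDX1 is higher in all resistant samples of both lines, SOD2 is lower in all of them, and CAT is lower in resistant Huh7 and higher in resistant HepG2.

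Differential expression here also asks for a log2 fold change beyond 1. PRDX2 and PRDX4 met it in Huh7 as higher, beside 8.59% of all genes tested. No member met it as lower in Huh7 by limma on log2(FPKM + 1), beside 14.0% of all genes, although 3 members had an unadjusted p under 0.05 in that direction. Limma-voom on reads calculated from the values found 2, SOD2 and CAT. Limma with 0.1 in place of 1 added to the FPKM, which uses no calculated reads, also found 2. The CAT reads in limma-voom rest on an exon length that does not give whole reads. In HepG2, SOD2 met it as lower, beside 2.98% of all genes. No member met it as higher in HepG2 by limma or limma-voom, beside 3.29% of all genes, and 3 members had an unadjusted p under 0.05. The median log2 fold change of the 10 genes was 0.75 in Huh7 and 0.10 in HepG2, against -0.04 and 0.12 over all genes tested.

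**Figure D2:**
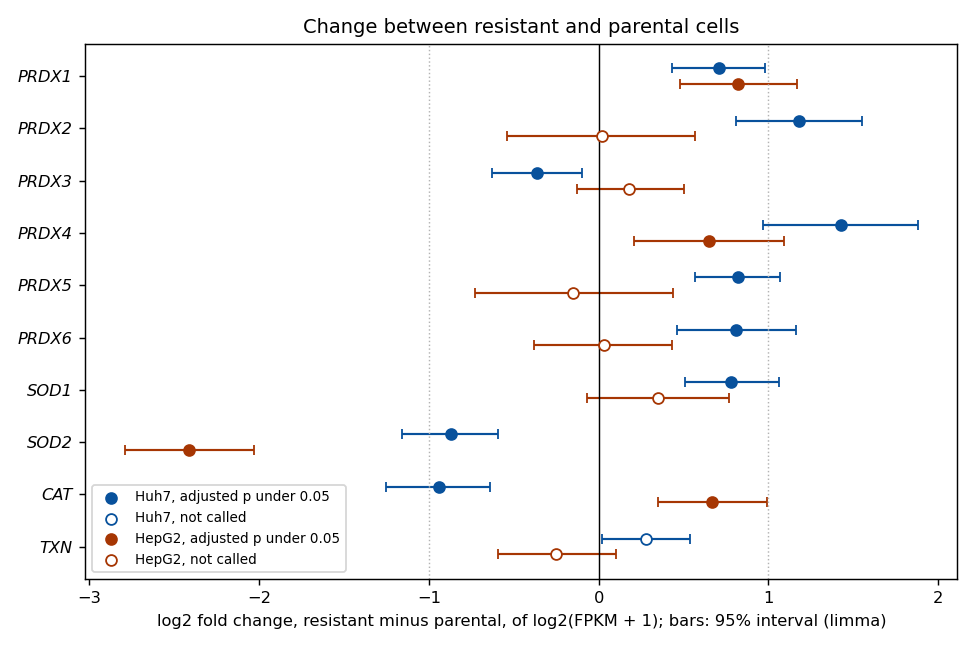
Log2 fold change of log2(FPKM + 1), resistant minus parental (horizontal axis), for each gene in Huh7 (blue) and HepG2 (brown). Filled points have an adjusted p under 0.05, open points were not called, and bars are 95% intervals from limma. The intervals of PRDX1 lie above 0 in both lines, those of SOD2 lie below 0 in both, and those of CAT lie on opposite sides of 0.

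The sequences before the start sites of PRDX4, SOD2 and CAT are shown because these genes rose in both lines, fell in both and moved in opposite directions. RefSeq promoter windows on GRCh38.p14 matched 7 of the 10 genes (PRDX2, PRDX3, PRDX4, PRDX5, SOD2, CAT and TXN). Where a gene had more than 1 window, such as SOD2 with 4, the window nearest the start of its principal transcript was used. The listed start lay 133 bases from that start for TXN and 0 to 59 bases from it for the other genes. The 250 bases upstream of the listed start are printed 5′ to 3′ on the gene's strand, and capitals mark the CCAAT box (CCAAT) and the GC box (GGGCGG) on either strand.
PRDX4, chrX:23667243-23667492, plus strand: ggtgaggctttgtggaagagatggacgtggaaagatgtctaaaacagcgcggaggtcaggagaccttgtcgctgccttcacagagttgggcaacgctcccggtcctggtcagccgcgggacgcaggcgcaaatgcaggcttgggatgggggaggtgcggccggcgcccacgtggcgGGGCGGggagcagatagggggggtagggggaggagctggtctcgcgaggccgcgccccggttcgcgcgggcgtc
SOD2, chr6:159693242-159693491, minus strand: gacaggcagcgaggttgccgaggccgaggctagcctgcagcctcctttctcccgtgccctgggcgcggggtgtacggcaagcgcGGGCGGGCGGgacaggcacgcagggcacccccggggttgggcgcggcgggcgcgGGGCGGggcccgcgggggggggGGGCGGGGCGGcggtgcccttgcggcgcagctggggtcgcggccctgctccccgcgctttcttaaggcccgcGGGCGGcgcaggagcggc
CAT, chr11:34438684-34438933, plus strand: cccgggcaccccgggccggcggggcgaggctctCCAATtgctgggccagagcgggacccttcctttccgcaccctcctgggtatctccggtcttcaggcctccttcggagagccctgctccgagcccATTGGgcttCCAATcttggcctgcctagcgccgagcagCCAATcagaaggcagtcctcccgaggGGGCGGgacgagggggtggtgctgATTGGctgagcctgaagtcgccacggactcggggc

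The CAT window held 5 CCAAT boxes and 1 GC box, the SOD2 window 6 GC boxes, some overlapping each other, and the PRDX4 window 1 GC box. Among the 7 genes CAT alone had a CCAAT box, which stands in 32.0% of all 35116 RefSeq windows of this length, and all 7 had a GC box, which stands in 42.6%. The TATA box (TATAAA) was found in TXN and in 10.7% of all windows. In TXN it stood 30 and 32 bases before the listed start, which is 133 bases from the principal start. The core of the antioxidant response element (TGACNNNGC) was in none of the 7 windows and in 10.9% of all windows. These counts describe letters in a short window, and some matches overlap, among them GC boxes of SOD2 and the 2 TATA boxes of TXN.

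PRDX1, a cytosolic peroxiredoxin recharged by thioredoxin, had the highest listed level of the 10 genes in every group. It stood at 425.2, 402.3 and 410.9 FPKM in parental Huh7 and at 715.3, 666.4 and 645.5 FPKM in resistant Huh7. In HepG2 it stood at 286.1, 350.0 and 285.2 FPKM in parental and at 516.5, 579.8 and 532.1 FPKM in resistant cells. Every resistant sample lay above every parental sample of its line. The mean rose from 412.8 ± 11.6 to 675.7 ± 35.8 FPKM (SD, n = 3) in Huh7, a log2 fold change of 0.71 with an SE of 0.12 and an adjusted p of 0.000916. In HepG2 it rose from 307.1 ± 37.2 to 542.8 ± 33 FPKM, a log2 fold change of 0.82 with an SE of 0.15 and an adjusted p of 0.00811, which was 0.0537 with no filter on low values. Without parental HepG2 sample 2 the HepG2 change was 0.92 (adjusted p = 0.00871). The difference between the lines in the change of PRDX1 was -0.12 with a 95% interval of -0.47 to 0.24 and was not called. It was 0.09 under median-ratio scaling, also not called, and -0.50 with the GC trend removed, where it was called (adjusted p = 0.00341).

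PRDX6, which uses glutathione in place of thioredoxin and also acts on phospholipids, had the next highest listed level among the peroxiredoxins. Parental Huh7 held 240.1, 229.0 and 172.1 FPKM and resistant Huh7 held 402.4, 359.3 and 354.5 FPKM. The Huh7 groups did not overlap, and the log2 fold change was 0.81 with an adjusted p of 0.00164. In HepG2, parental cells held 233.1, 314.9 and 220.1 FPKM and resistant cells 232.0, 272.0 and 270.1 FPKM. These groups overlapped, with the parental range enclosing the resistant range and a log2 fold change of 0.03 (95% interval -0.38 to 0.43). Under either other scaling of the samples this value turned below 0, to -0.09 or -0.06, and without parental HepG2 sample 2 it was 0.18. None of these values was called.

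PRDX2, the other cytosolic member of the PRDX1 type, is best known from red blood cells. It was listed at 14.2, 10.8 and 9.34 FPKM in parental Huh7 and at 30.7, 23.7 and 26.9 FPKM in resistant Huh7. The Huh7 groups did not overlap, and the mean was 2.36 times higher in resistant cells, with a log2 fold change of 1.18 (SE 0.16, adjusted p = 0.000304). With the trend on GC content removed, the PRDX2 change fell to 0.59, still called. In HepG2 it was listed at 14.3, 23.3 and 13.2 FPKM in parental and at 13.2, 20.8 and 16.6 FPKM in resistant cells, ranges that overlapped almost fully. The HepG2 log2 fold change was 0.02 (95% interval -0.54 to 0.57), and it turned to -0.09 and -0.06 under the other scalings. Without parental HepG2 sample 2 it was 0.26, not called (adjusted p = 0.407).

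PRDX4 is the peroxiredoxin of the endoplasmic reticulum, where it passes oxidation on to folding proteins. Its levels were 8.28, 5.27 and 5.66 FPKM in parental Huh7 and 17.6, 15.1 and 24.0 FPKM in resistant Huh7. It had the largest log2 fold change among the members in Huh7, 1.43 with an SE of 0.20 and an adjusted p of 0.000341, and the groups did not overlap. In HepG2 the levels were 5.20, 4.44 and 5.91 FPKM in parental and 6.51, 10.5 and 9.40 FPKM in resistant cells. These groups did not overlap either, and the log2 fold change was 0.65 (SE 0.19, adjusted p = 0.0461). Without a filter on low values the adjusted p of PRDX4 in HepG2 was 0.109, under median-ratio scaling 0.0731 and under upper-quartile scaling 0.0665. Dropping a sample ended the call in 5 of 6 cases. The adjusted p was then 0.133 without resistant HepG2 sample 2, 0.164 without resistant sample 3, 0.112 without parental sample 1 or 2 and 0.0576 without parental sample 3.

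PRDX5, found in mitochondria, peroxisomes and the cytosol, was listed at 7.93, 7.11 and 6.31 FPKM in parental Huh7 and at 13.8, 12.8 and 13.3 FPKM in resistant Huh7. Every resistant Huh7 sample lay above the parental samples, with a log2 fold change of 0.82 (SE 0.11, adjusted p = 0.00027). With the GC trend removed the change was 0.23 and remained called. In HepG2 it was listed at 6.57, 12.8 and 6.48 FPKM in parental and at 6.61, 9.13 and 6.51 FPKM in resistant cells. Parental HepG2 sample 2 stood apart from all other HepG2 samples. The HepG2 log2 fold change was -0.15 (95% interval -0.73 to 0.44) and turned to 0.15 without that sample, and neither value was called.

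PRDX3, the peroxiredoxin of the mitochondrial matrix, was the peroxiredoxin that fell in Huh7. Parental Huh7 held 18.2, 16.7 and 19.2 FPKM and resistant Huh7 held 12.3, 15.6 and 13.7 FPKM, groups that did not overlap. The log2 fold change of -0.36 (SE 0.12, adjusted p = 0.0213) was close to the median of -0.39 of the genes of like GC content. The call was lost with the GC trend removed, where the change was -0.08 (adjusted p = 0.4), and without resistant Huh7 sample 1 (adjusted p = 0.0815), resistant sample 3 (0.0714) or parental sample 3 (0.0601). In HepG2, parental cells held 19.3, 16.9 and 21.2 FPKM and resistant cells 23.1, 20.8 and 21.3 FPKM. The HepG2 groups overlapped, and the change of 0.18 was not called (adjusted p = 0.373). Without parental HepG2 sample 2 it was 0.10 (adjusted p = 0.654).

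The summed level of the 6 peroxiredoxins was 670 ± 45.3 FPKM in parental Huh7 and 1121 ± 61.9 FPKM in resistant Huh7 (SD, n = 3). In HepG2 it was 613 ± 95 FPKM in parental and 856 ± 57.6 FPKM in resistant cells, and in both lines the ranges did not overlap. PRDX1 and PRDX6 made up most of each sum of listed values. How reads that fit more than a single place were assigned is not given, and its part in the shares was not tested. The shares therefore describe the listed values only. PRDX1 held 61.8% ± 3.55 of the sum in parental Huh7 and 60.3% ± 0.608 in resistant Huh7, ranges that overlapped. In HepG2 the PRDX1 share was 50.3% ± 1.69 in parental and 63.5% ± 1.25 in resistant cells, while the PRDX6 share was 41.6% ± 1.87 and 30.1% ± 1.23. The HepG2 ranges of both shares lay apart, which describes how the sum was made up and carries no test. The level of PRDX3 relative to PRDX1 was 0.0437 ± 0.00265 in parental and 0.0206 ± 0.00314 in resistant Huh7, and 0.0633 ± 0.0135 and 0.0403 ± 0.00445 in HepG2.

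SOD2, the manganese superoxide dismutase of the mitochondrial matrix, showed the largest change of any member. Its levels in HepG2 were 34.7, 25.6 and 24.5 FPKM in parental and 4.88, 3.99 and 4.49 FPKM in resistant cells. No samples overlapped, and the mean was 6.34 times higher in parental HepG2, with a log2 fold change of -2.41 (SE 0.17, adjusted p = 0.000173). In Huh7 its levels were 8.43, 7.78 and 8.61 FPKM in parental and 3.66, 4.91 and 3.70 FPKM in resistant cells. These groups did not overlap either, and the log2 fold change was -0.87 (SE 0.12, adjusted p = 0.00038). The call held in every alternative and with each sample left out in both lines, with changes from -1.09 to -0.46 in Huh7 and from -2.63 to -2.26 in HepG2. Without parental HepG2 sample 2 the HepG2 change was -2.47.

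The SOD2 values are those of ENSG00000112096, whose exons span 16493 bases in GENCODE 29. The other entry named SOD2, ENSG00000285441, reached at most 0.30 FPKM and was not tested. Adding it moved the difference in mean log2(FPKM + 1) only to -0.89 in Huh7 and to -2.35 in HepG2. WTAP overlaps SOD2 on the opposite strand, and the library kit does not mark strand, so reads in the shared stretch cannot be told apart. WTAP itself averaged 6.77 and 4.95 FPKM in parental and resistant Huh7, and 7.65 and 6.65 FPKM in HepG2.

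SOD1, the copper and zinc enzyme of the cytosol, was listed at very low levels. It stood at 1.66, 1.21 and 1.38 FPKM in parental Huh7 and at 3.47, 3.13 and 2.84 FPKM in resistant Huh7, from 41 to 133 reads per sample. The Huh7 groups did not overlap, and the log2 fold change of 0.78 (SE 0.12, adjusted p = 0.000524) was 0.27 with the GC trend removed (adjusted p = 0.0384). In HepG2 it stood at 0.94, 1.93 and 1.13 FPKM in parental and at 1.81, 2.00 and 1.99 FPKM in resistant cells, from 25 to 74 reads. Parental HepG2 sample 2 overlapped the resistant samples, and the change of 0.35 was not called (adjusted p = 0.202). Without that sample it was 0.53 (adjusted p = 0.0602). How the authors assigned reads that fit more than a single place is not given in the sources used here. Other genes that nearly every cell expresses were also listed low, among them B2M at 1.10 to 2.45 FPKM and FTH1 at 5.18 to 19.4 FPKM, both chosen after their values were seen.

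The level of SOD2 relative to SOD1 was 5.93 ± 0.736 in parental Huh7 and 1.31 ± 0.26 in resistant Huh7 (SD, n = 3). In HepG2 it was 23.9 ± 12 in parental and 2.31 ± 0.353 in resistant cells. The ranges of parental and resistant samples lay apart in both lines, from 5.09 to 6.46 and 1.05 to 1.57 in Huh7 and from 13.2 to 36.8 and 1.99 to 2.69 in HepG2. These are ratios of levels per length, so they depend on the exon lengths used and on the low level of SOD1.

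CAT, the peroxisomal catalase, moved in opposite directions in Huh7 and HepG2. Huh7 levels were 21.1, 21.1 and 22.3 FPKM in parental and 8.99, 13.0 and 10.4 FPKM in resistant cells. HepG2 levels were 13.5, 10.4 and 12.4 FPKM in parental and 20.5, 20.1 and 18.8 FPKM in resistant cells. Parental and resistant samples lay apart in both lines. The log2 fold change was -0.94 (SE 0.13, adjusted p = 0.000374) in Huh7 and 0.67 (SE 0.14, adjusted p = 0.0145) in HepG2, and the HepG2 call was lost without resistant HepG2 sample 3 (adjusted p = 0.0659). Without parental HepG2 sample 2 the HepG2 change was 0.57 (adjusted p = 0.0356). The difference between the 2 changes was -1.61 with a 95% interval of -2.02 to -1.21 (adjusted p = 4.63e-05). Relative to PRDX6, CAT went from 0.103 ± 0.0226 to 0.0293 ± 0.007 in Huh7 and from 0.0492 ± 0.0139 to 0.0772 ± 0.00976 in HepG2.

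TXN, the small cytosolic protein that recharges peroxiredoxins such as PRDX1 and PRDX2, stood at 196.0, 198.1 and 206.4 FPKM in parental Huh7 and at 222.6, 258.3 and 247.9 FPKM in resistant Huh7. The Huh7 groups did not overlap, yet the log2 fold change of 0.28 missed the threshold (adjusted p = 0.0559). It was called under 6 of 11 alternatives, among them both other scalings (0.35 and 0.29) and removal of the GC trend (0.59). In HepG2 it stood at 160.7, 124.1 and 147.7 FPKM in parental and at 131.3, 117.1 and 114.0 FPKM in resistant cells. Those groups overlapped, and the change of -0.25 was not called (adjusted p = 0.269), nor was that of -0.35 without parental HepG2 sample 2 (adjusted p = 0.139).

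The change between resistant and parental cells differed between the lines for 8 of the 10 genes, by a test of the difference itself in a single fit of all 12 samples. The Huh7 change minus the HepG2 change was above 0 for 6 and below 0 for 2, where 23.1% and 33.2% of all 13800 genes tested were called. PRDX2 differed by 1.17 (adjusted p = 0.00898), PRDX5 by 0.97 (0.0178) and PRDX6 by 0.78 (0.0137), all larger in Huh7. TXN differed by 0.52 (adjusted p = 0.0183), with changes of 0.28 in Huh7 and -0.25 in HepG2 that were not called. SOD2 differed by 1.54 (adjusted p = 0.000117), its fall being smaller in Huh7. PRDX3 differed by -0.55 (adjusted p = 0.0133) and CAT by -1.61. PRDX4 differed by 0.78 with an adjusted p of 0.0447, which was lost under 6 of 10 alternatives. It was also lost without sample 1 or 3 of resistant Huh7, resistant HepG2 or parental HepG2, and without parental Huh7 sample 2 or 3, with values from 0.59 to 0.83 (adjusted p up to 0.11). For SOD1 the difference was 0.43 with a 95% interval of -0.02 to 0.89 and was not called, although it was without parental HepG2 sample 1 (0.55, adjusted p = 0.0353) and under median-ratio scaling (0.55, adjusted p = 0.043). With the GC trend removed it turned to -0.05, not called. For TXN the call was lost without resistant HepG2 sample 3 (0.48, adjusted p = 0.0509).

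**Figure D3:**
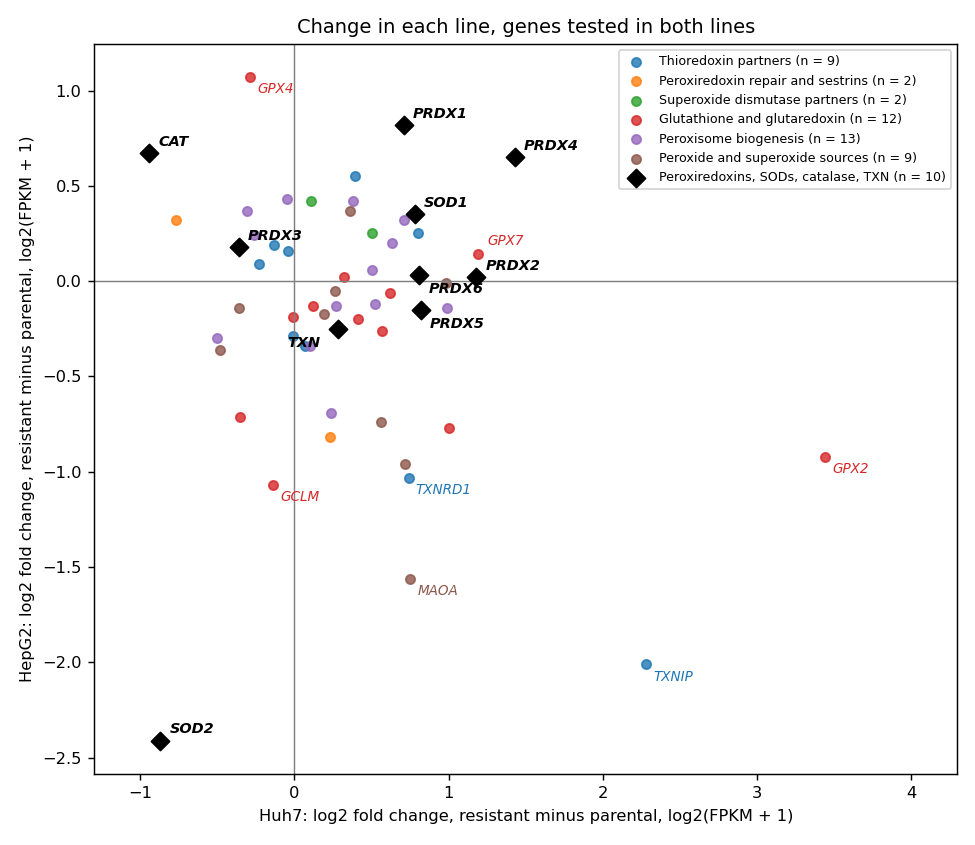
Log2 fold change of log2(FPKM + 1), resistant minus parental, in Huh7 (horizontal axis) and HepG2 (vertical axis) for the 10 genes (black diamonds) and the partner genes tested in both lines (coloured points). Named partners have a log2 fold change beyond 1 in a line. SOD2 lies at -0.87 and -2.41, CAT at -0.94 and 0.67, and TXNIP at 2.28 and -2.01.

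Among parental cells, PRDX1, CAT and TXN were higher and SOD2 lower in Huh7 than in HepG2, by 0.43, 0.78, 0.48 and -1.64 in log2. These were 3 higher members and 1 lower member, where 39.8% and 27.4% of all genes tested were called. The parental call of PRDX1 was lost under median-ratio scaling (0.26, adjusted p = 0.0741). Among resistant cells, PRDX1, PRDX2, PRDX4, PRDX5, PRDX6, SOD1 and TXN were higher and PRDX3 and CAT lower in Huh7. These were 7 higher and 2 lower members, where 31.7% and 32.4% of all genes tested were called. With the GC trend removed, the calls of PRDX1 (0.12, adjusted p = 0.202) and SOD1 (0.26, adjusted p = 0.0591) between the resistant lines ended, and that of PRDX1 also ended with no filter on low values (adjusted p = 0.0836). Leaving out sample 1 of resistant Huh7 or resistant HepG2 ended the calls of PRDX1 (0.27 and 0.28), PRDX2 (0.58 and 0.51) and PRDX6 (0.47 and 0.45) between the resistant lines. PRDX1 was also lost without resistant Huh7 sample 2 (0.33) or resistant HepG2 sample 3 (0.30), and PRDX2 without resistant Huh7 sample 3 (adjusted p = 0.051). The SOD2 difference of -1.64 between the parental lines (95% interval -1.96 to -1.33) stood beside -0.11 between the resistant lines (95% interval -0.42 to 0.21), which was not called. TXN differed by 1.00 between the resistant lines (adjusted p = 1.59e-05), with 222.6 FPKM as the lowest Huh7 value and 131.3 FPKM as the highest HepG2 value. Ordered by mean, PRDX1 fell from resistant Huh7 to resistant HepG2, parental Huh7 and parental HepG2 with no overlap between neighbours. SOD2 ran from parental HepG2 through parental Huh7 to resistant HepG2 and resistant Huh7, the last pair overlapping.

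Genes that recharge, inhibit or repair the members were counted from lists. Of 9 tested thioredoxin partners, 4 were called higher in Huh7 (all genes, 32.7%), and 1 was called higher and 2 lower in HepG2 (all genes, 11.6% and 8.43%). TXNIP, the protein that binds and inhibits thioredoxin, went from 2.51, 2.88 and 2.27 FPKM in parental to 14.6, 18.8 and 15.6 FPKM in resistant Huh7. In HepG2 it went from 180.7, 179.7 and 130.8 FPKM in parental to 40.7, 36.2 and 41.8 FPKM in resistant cells. No groups overlapped, and the changes of 2.28 and -2.01 differed by 4.29 (adjusted p = 1.97e-07). TXNRD1, the cytosolic thioredoxin reductase, had mean levels of 14.12 and 24.27 FPKM in parental and resistant Huh7, a change of 0.74 (adjusted p = 0.00211). In HepG2 its means were 23.07 and 10.75 FPKM, a change of -1.03 (adjusted p = 0.00192). TXNRD2, the mitochondrial reductase, rose in Huh7 by 0.80 (adjusted p = 0.000367), and its HepG2 change of 0.25 was not called.

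Sestrins, stress proteins linked to the repair of overoxidised peroxiredoxins, were 3 of the 4 genes of the peroxiredoxin repair list. The other gene, SRXN1, matched no Ensembl entry by symbol. In Huh7, 2 of the 3 sestrins were called lower, where 37.4% of all genes were. SESN3 was at 6.16 ± 0.615 FPKM in parental and 1.98 ± 0.132 FPKM in resistant Huh7 (log2 fold change -1.26, adjusted p = 4.86e-05). SESN1 fell by 0.77 in Huh7, and SESN2 fell by 0.82 in HepG2 (adjusted p = 0.0209). CCS, the copper chaperone of SOD1, rose in Huh7 by 0.50 (adjusted p = 0.0138), and its change of 0.25 in HepG2 was not called. Of 14 peroxisome biogenesis genes tested in Huh7, 6 rose and 2 fell, where 32.7% of all genes rose and 37.4% fell. PEX5, the import receptor for catalase and other peroxisomal proteins, rose by 0.99 (adjusted p = 0.000171). In HepG2, PEX6 alone of 13 tested was called, falling by 0.69 (adjusted p = 0.0391).

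**Figure D4:**
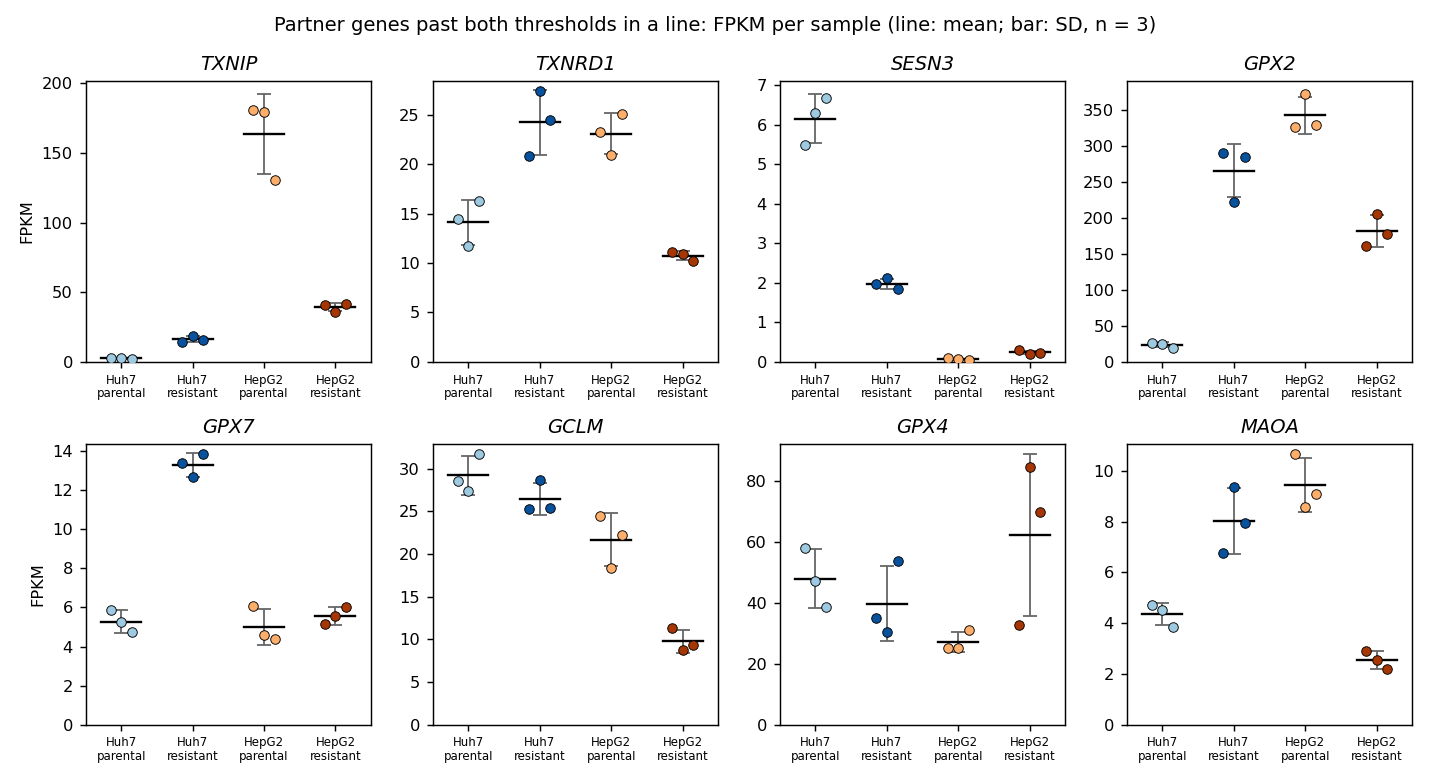
FPKM (vertical axes, from 0) in the 12 samples for the 8 partner genes with a log2 fold change beyond 1 and an adjusted p under 0.05 in a line. Points are samples, lines are means and bars are SD (n = 3). TXNIP and GPX2 are higher in resistant than parental Huh7 and lower in resistant than parental HepG2, and GPX4 in resistant HepG2 spreads from 32.8 to 84.4 FPKM.

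The glutathione and glutaredoxin list, which serves the same peroxides by another route, had 7 genes called higher and 1 lower of 12 tested in Huh7, and 1 higher and 4 lower in HepG2. All genes gave 32.7% higher and 37.4% lower in Huh7 and 11.6% higher and 8.43% lower in HepG2. GPX2, a selenium-dependent glutathione peroxidase, was at 26.8, 24.3 and 19.7 FPKM in parental and 290.3, 222.9 and 284.5 FPKM in resistant Huh7. In HepG2 it was at 327.2, 372.9 and 328.9 FPKM in parental and 161.5, 205.1 and 178.0 FPKM in resistant cells. Its log2 fold changes of 3.44 and -0.92 differed by 4.36 (adjusted p = 1.97e-07). GSR, glutathione reductase, rose by 1.00 in Huh7 (adjusted p = 0.00019) and fell by 0.77 in HepG2 (adjusted p = 0.0177). GCLM, a subunit of the enzyme that starts glutathione synthesis, fell in HepG2 by 1.07 (adjusted p = 0.00376), and GPX7 rose in Huh7 by 1.19 (adjusted p = 5.47e-05). GPX4, which reduces lipid peroxides, rose in HepG2 by 1.07 (adjusted p = 0.0457), with resistant samples at 32.8, 84.4 and 69.5 FPKM. Of the genes that produce peroxide or superoxide, 5 of 11 tested rose and 2 fell in Huh7 (all genes, 32.7% and 37.4%), and 3 of 9 fell in HepG2 (all genes, 8.43%). MAOA, a mitochondrial amine oxidase, rose by 0.75 in Huh7 (adjusted p = 0.00126) and fell by 1.56 in HepG2 (adjusted p = 0.000626).

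In Huh7 the change of a gene moved with its GC content. Across 12545 genes the Spearman correlation between both was 0.62 in Huh7 and 0.04 in HepG2 across 11756 genes, as a description of genes that share the same libraries. The members cover GC contents from 41.7% (SOD2) to 61.5% (PRDX5). Genes within 1 percentage point of the GC content of PRDX2 had a median Huh7 change of 0.55, against 1.18 for PRDX2 itself. For PRDX6 and CAT, both at 45.2%, that median was -0.16, against changes of 0.81 and -0.94. For SOD2 it was -0.48, against -0.87. PRDX4 and PRDX6 lay above the 90th percentile of genes of like GC content in Huh7, at 1.07 and 0.70. In HepG2 the SOD2 change of -2.41 lay below the 10th percentile of -0.53, and PRDX1, PRDX4 and CAT lay above the 90th percentiles of 0.61, 0.61 and 0.66. With the GC trend removed, PRDX1 changed by 0.32, PRDX2 by 0.59, PRDX4 by 1.01 and SOD2 by -0.46 in Huh7, all still called. PRDX5 (0.23), SOD1 (0.27), PRDX6 (0.89) and CAT (-0.86) also stayed called. PRDX3 lost its call (-0.08, adjusted p = 0.4), and TXN gained one (0.59, adjusted p = 0.000473). The trend was removed between resistant and parental samples of the same line, so a GC effect and a change with resistance cannot be told apart.

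**Figure D5:**
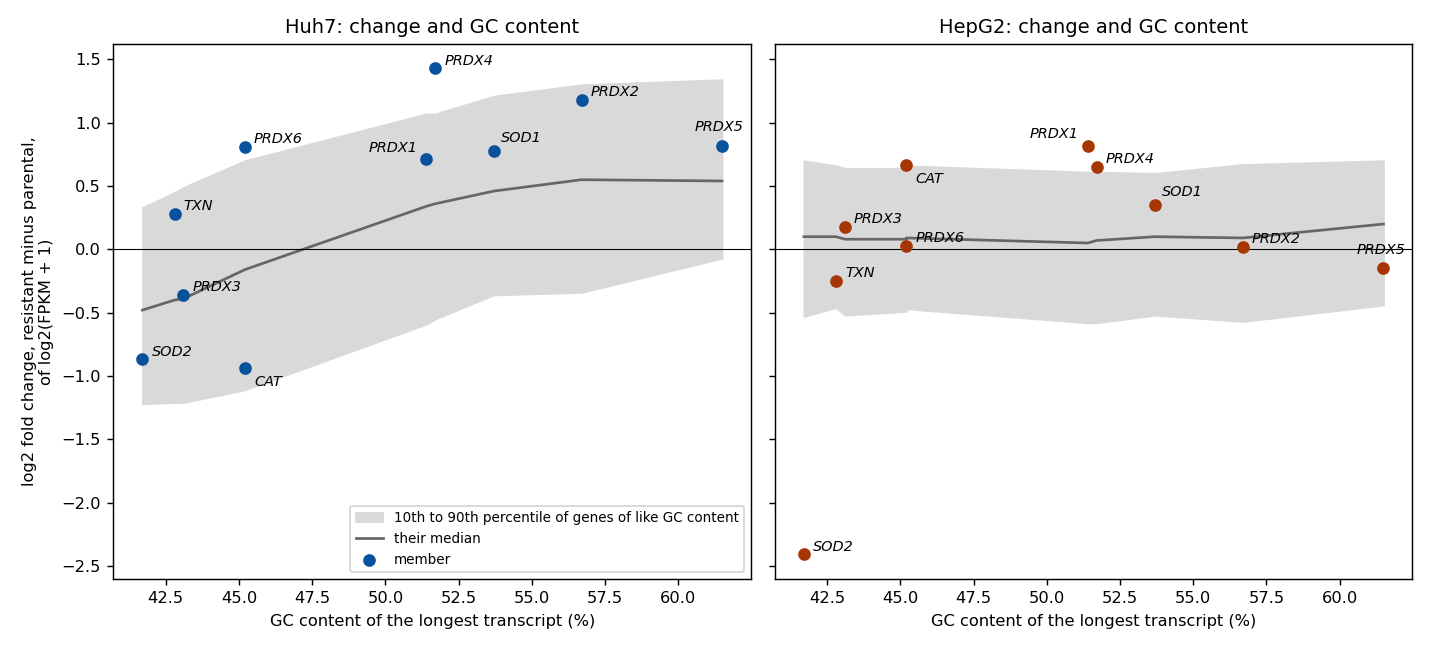
Log2 fold change of log2(FPKM + 1), resistant minus parental (vertical axis), against the GC content of each gene's longest transcript in percent (horizontal axis), in Huh7 (left) and HepG2 (right). Points are the 10 genes, the line is the median and the band the 10th to 90th percentile of genes within 1 percentage point of GC content. The Huh7 median runs from -0.48 at SOD2 to 0.54 at PRDX5, and the HepG2 median stays between 0.05 and 0.20.

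For the 5 genes whose highest and lowest group means differed by more than 1 in log2, the 3 genes nearest in pattern were found among 10688 genes tested in both lines. Likeness was the root mean square difference of centred log2(FPKM + 1) over the 12 samples. The nearest to PRDX1 were PRMT7 (0.10), ZNF398 (0.11) and MCM3 (0.12). The nearest to PRDX2 were TIMM50 (0.09), MDH2 (0.10) and EIF3K (0.11), and those nearest to PRDX4 were KRT8 (0.16), C12orf10 (0.17) and SERPINH1 (0.19). For TXN they were DRAM1 (0.12), SP140L (0.12) and CASK (0.13). For SOD2 they were ACSL3 (0.30), ATXN1 (0.33) and UNC93A (0.33). The measure is not scaled to a gene's own range, and SOD2 had the widest range of the 5, 2.52 in log2. Its larger distances therefore do not rank its pattern against those of the others. ACSL3, an enzyme that activates fatty acids, averaged 49.27 and 26.59 FPKM in parental and resistant Huh7 and 99.97 and 26.4 FPKM in HepG2.

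Several members have near copies or neighbours in the genome that could share reads. The pseudogene TXNP6 was listed at 19.2 and 3.15 FPKM on average in parental and resistant Huh7 and at 4.41 and 9.46 FPKM in HepG2, where TXN itself stood at over 100 FPKM. PRDX3P2 was listed at 3.24 to 5.80 FPKM by group and PRDX2P4 at up to 2.86 FPKM, while PRDX2P1 and TXNP1 stayed under 0.75 FPKM in each group mean. MMACHC overlaps PRDX1 on the opposite strand and averaged 6.34 to 12.4 FPKM by group. HOOK2 spans PRDX2 on the same strand and averaged at most 1.32 FPKM. RF01241 lies within SOD1 on the same strand and averaged 7.30 and 11.8 FPKM in parental and resistant Huh7. In HepG2 it averaged 5.63 and 8.46 FPKM, while SOD1 itself averaged 1.34 to 3.15 FPKM by group. RNU4ATAC18P lies within SOD2 on the same strand and averaged 5.12 to 9.52 FPKM by group. The part of shared reads in the results of PRDX2, PRDX3, SOD1, SOD2 and TXN was not tested.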

How the data were processed

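Condition and replicate number came from the sample labels. The authors deposited a table per sample with decimal values per gene whose unit is not stated; they are treated here as FPKM, since value times exon length falls on whole multiples of a step per sample (96.256% to 96.525% of values of up to 2000 reads were within 0.05 of a whole read). RPKM and FPKM cannot be told apart. Per the labels, libraries were made with a NEBNext Ultra kit and reads refer to GRCh38 with bcl2fastq named as a tool; labels and methods name different RNA extraction kits. Aligner and counting tool are not given in the sources used here. For CAT the GENCODE 29 length did not give whole reads, so its reads are not printed, and its limma-voom value rests on that length.

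Values were used as deposited, without rescaling, with Python 3.11.15, pandas 2.3.3, R 4.3.3 and limma 3.58.1. Genes with an Ensembl identifier and at least 1 FPKM in at least 3 samples of the fit were tested on log2(FPKM + 1) with limma's empirical Bayes test with a trend, two-sided, and Benjamini-Hochberg adjustment over all genes tested. Each line was fitted alone with 6 samples; comparisons between lines used all 12. The pseudocount understates changes of low genes such as SOD1. The test was also tried on simulated data, with the outcome not given here. Gene models, positions and GC content came from GENCODE 29. The 10 genes and the lists were chosen with earlier results of these data known. All 10 members are named, with up to 4 list genes per list and line by largest change past both thresholds, plus list genes given to show a role. Alternatives covered pseudocount, filters, scaling, trend, replicate block, GC trend, limma-voom on recovered reads, a joint fit and each sample left out.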

Additional observations from a re-analysis of the deposited data

Results flagged for a closer look

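The change between resistant and parental cells differed between Huh7 and HepG2 for 8 genes, by a test of the difference itself (limma, 12 samples, log2(FPKM + 1), Huh7 change minus HepG2 change). PRDX2 differed by 1.17, with all 3 resistant Huh7 samples above the parental samples and overlapping groups in HepG2. PRDX5 differed by 0.97 and PRDX6 by 0.78, and both had separate groups in Huh7 and overlapping groups in HepG2. PRDX4 differed by 0.78, with separate groups in both lines and a larger rise in Huh7. TXN differed by 0.52 and PRDX3 by -0.55, each with separate groups in Huh7 and overlapping groups in HepG2. SOD2 differed by 1.54, falling in both lines and further in HepG2. CAT differed by -1.61, with every resistant sample below the parental samples in Huh7 and above them in HepG2.

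The TXN difference lost its call without resistant HepG2 sample 3 (0.48, adjusted p = 0.0509). The PRDX3 difference lost it under median-ratio scaling (-0.35, adjusted p = 0.0675), and the PRDX5 difference with the GC trend removed (0.51, adjusted p = 0.1). The PRDX4 difference lost it under 6 alternatives, such as a pseudocount of 0.1 (0.81, adjusted p = 0.0576). The differences of PRDX2, PRDX6, SOD2 and CAT stayed called under all 10 alternatives and with each of the 12 samples left out.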

How the results depend on the processing

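Changes of uncalled genes turned sign in some settings. Under median-ratio and upper-quartile scaling the HepG2 changes of PRDX2 (-0.09 and -0.06) and PRDX6 (-0.09 and -0.06) and the parental line difference of SOD1 (-0.04 and -0.00) turned, as did the PRDX1 difference between the lines' changes (0.09) under the former. With the GC trend removed, with or without the replicate block, the SOD1 difference between the changes (-0.05), the parental difference of PRDX5 (0.04) and the resistant difference of SOD2 (0.08) turned. With a sample left out, the HepG2 changes ranged from -0.14 to 0.26 for PRDX2, from -0.30 to 0.15 for PRDX5 and from -0.07 to 0.18 for PRDX6, and the parental differences from -0.34 to 0.10 for PRDX5 and from -0.06 to 0.24 for SOD1. Median-ratio scaling moved the median of all genes from -0.15 to -0.01 for the difference between the changes and from 0.18 to 0.04 for the parental lines.

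Counts of members moved as follows. Huh7 genes differentially expressed as higher went from 2 to 1 with the GC trend removed, and as lower from 0 to 2 with a pseudocount of 0.1 or limma-voom and from 0 to 1 over left-out samples (1 without resistant Huh7 sample 2). HepG2 genes called higher went from 3 to 1 with no filter, and from 1 (without resistant HepG2 sample 3) to 3 over left-out samples. For the difference between the changes, genes called lower went from 2 to 1 under median-ratio scaling. For the parental lines, genes called lower went from 1 to 3 under median-ratio scaling and to 2 under upper-quartile scaling or with the GC trend removed, and from 1 to 2 over left-out samples (2 without parental Huh7 sample 1 or parental HepG2 sample 3). For the resistant lines, genes called higher went from 4 to 7 over left-out samples (4 without sample 1 of either line), and differentially expressed as higher from 2 to 1 under upper-quartile scaling, with the GC trend removed or with limma-voom, and from 0 (without resistant Huh7 sample 3) to 2 over left-out samples. The cause was not tested.

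Same-numbered samples deviated together with correlations of 0.084, 0.062 and -0.228 in Huh7, where differently numbered samples gave -0.335 to 0.282. In HepG2 the same-numbered values were 0.246, 0.437 and -0.011, against -0.423 to 0.21 for differently numbered samples. Sample 2 was the highest of both HepG2 groups for PRDX1, PRDX2, PRDX5, PRDX6 and SOD1. The replicate block lowered the SE of the HepG2 change from 0.24 to 0.13 for PRDX2 and from 0.26 to 0.14 for PRDX5. Whether replicate numbers pair the samples was not tested. With the replicate block alone, 6 members were called higher and 3 lower in Huh7 and 3 higher and 1 lower in HepG2, as without it, and the PRDX4 difference between the lines' changes lost its call (adjusted p = 0.0574). With the block and the GC trend removed, the Huh7 change of SOD1 (0.27, adjusted p = 0.0846) and the PRDX3 difference between the lines' changes (-0.30, adjusted p = 0.0537) lost their calls.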
